A study of Mus musculus with 12 samples.

Results

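Sst-neurons and Thy1-neurons of saline-treated mice were compared over 5 libraries, 3 of Sst-neurons and 2 of Thy1-neurons, out of the 10 libraries with counts in the series. The members were taken by their labels, namely replicates 1, 2 and 3 of the Sst group and replicates 2 and 3 of the Thy1 group, while replicate 1 of Thy1 was not analysed here. The Sst-neurons were somatostatin-positive cortical interneurons of GIN mice, an FVB line in which a Gad promoter transgene expresses eGFP in a group of these cells. The Thy1-neurons were cortical pyramidal neurons of YFPH mice, a B6 line in which a Thy1 promoter transgene expresses yellow fluorescent protein in layer V. All mice were males of 20 g, aged 5 to 7 weeks, and each carried a subcutaneous osmotic mini pump that delivered saline for 14 days. Labelled cells were drawn up by micropipette from dissociated cortex into lysates of 10 cells, and the cDNA was amplified before sequencing. The nicotine groups, Sst+Nic (2 libraries) and Thy1+Nic (3 libraries), received nicotine hydrogen tartrate at 48 mg/kg/d for the same time and are used below as libraries in which the saline differences were not chosen. Mouse line, strain background and cell type follow the same split, so that their parts in any difference below cannot be told apart.

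Cortical somatostatin interneurons are GABAergic cells that inhibit the distal dendrites of pyramidal neurons, and their peptide, somatostatin, is an inhibitory neuropeptide. Layer V pyramidal neurons are glutamatergic projection cells whose dendrites carry spines, the sites of most of their excitatory synapses. Interneurons arise in the ventral forebrain and pyramidal neurons in the dorsal forebrain, under different transcription factors, and Sox1 is one of the SoxB factors that interneuron precursors use.

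The libraries held 3490998 to 4022038 counted fragments, so that a count of 0, read as up to 3 counts, allowed 0.746 to 0.859 CPM (a gene's counts scaled to the same library total). These limits cover counting error only. The names of entries could be used for 1031 of 35129 entries, called position-checked here, which are the 13 mitochondrially encoded protein genes and the genes at the starts of 4 chromosomes of GRCm38, up to 88.3 Mb on chromosome 16, 15 Mb on chromosome 8, 6.4 Mb on chromosome 19 and 3.3 Mb on chromosome 7. Outside them, 8 genes that neurons of one or both kinds express (Actb, Gad1, Gad2, Gapdh, Slc17a7, Snap25, Thy1 and Tubb3) had at most 19 counts in any saline library. The defining markers of GABAergic and glutamatergic neurons other than Sst therefore could not be checked, and the genes named below are position-checked, except the mitochondrial ribosomal RNAs Rnr1 and Rnr2, which are given only as a share of fragments.

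Sst, the gene that defines the interneurons, was at 61221, 126088 and 91130.3 CPM in the Sst libraries, or 6.12%, 12.6% and 9.11% of all counted fragments. It was at 1.15 CPM in replicate 2 of Thy1 (4 counts, Wilson 95% interval 0.446 to 2.95 CPM) and at 3795 CPM in replicate 3 (13823 counts). The groups did not overlap, but the level in Thy1 replicate 3 was 4.09% of the mean Sst level, and the difference of 5.41 ± 2.29 (log2 fold change ± SE) had an adjusted p of 0.308 in edgeR's quasi-likelihood test. Without Thy1 replicate 3, the fitted difference was 16.23 and the adjusted p 0.00668 in edgeR. Over all alternatives its adjusted p ranged from 1.66e-76, with no filter on low counts, to 0.447. Sox1 was at 0 in the library that held Sst, which allows up to 0.573% of the mean Sox1 level in Sst-neurons. In lysates of pooled cells, fewer cells of a type and less RNA per cell cannot be told apart.

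The upstream sequences of the 4 marker genes of this comparison are shown because Sst and Sox1 were at or near their limits in at least 1 Thy1 library while Ctxn1 and Fam131a were higher in both. They are the 150 bases before the transcript start that the RefSeq promoter table gives (GRCm38.p6), written 5′ to 3′ on the gene's strand, with matches to the motifs in capitals. The motifs searched on both strands were the cAMP response element TGACGTCA, the GC box GGGCGG, the CCAAT box CCAAT and the TATA box TATAAA, none of which overlapped another in these 4 stretches.
Sst, chr16:23890845-23890994, minus strand: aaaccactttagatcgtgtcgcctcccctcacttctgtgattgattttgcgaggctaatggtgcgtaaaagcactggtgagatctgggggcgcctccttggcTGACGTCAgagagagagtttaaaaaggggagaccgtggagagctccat
Sox1, chr8:12395369-12395518, plus strand: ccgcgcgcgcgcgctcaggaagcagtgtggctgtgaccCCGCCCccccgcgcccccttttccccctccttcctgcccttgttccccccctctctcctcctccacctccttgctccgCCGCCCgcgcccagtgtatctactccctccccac
Ctxn1, chr8:4259275-4259424, minus strand: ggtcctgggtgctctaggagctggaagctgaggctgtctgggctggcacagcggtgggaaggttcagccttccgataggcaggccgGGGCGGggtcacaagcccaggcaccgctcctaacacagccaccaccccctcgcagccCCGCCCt
Fam131a, chr16:20694907-20695056, plus strand: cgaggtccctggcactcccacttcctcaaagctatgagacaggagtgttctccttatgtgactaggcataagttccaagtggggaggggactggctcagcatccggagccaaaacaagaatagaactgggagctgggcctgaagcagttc
The element TGACGTCA began 48 bases before that start in Sst, and 1.36% of 32851 promoters held it in a window of this length. Sox1 and Ctxn1 held 2 GC boxes each, which 28.6% of all promoters contained at least once, and the Fam131a stretch held none of these letters. Of the 25 nuclear genes described below (Sst and 24 called genes), 17 had a RefSeq promoter in the table used. The cAMP response element occurred in 1 of the 17, the GC box in 10, the CCAAT box (24.5% of all promoters) in 3 and the TATA box (7.57% of all promoters) in 0. These matches describe the letters only, and no binding was measured.

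Over all entries, 6350 had enough counts to be tested, and 109 (1.72%) were differentially expressed (DEGs, at an adjusted p under 0.05 in edgeR and a log2 fold change above 1 in size), 52 (0.819%) higher and 57 (0.898%) lower in Sst-neurons. Of 714 position-checked entries with a count, 562 were tested and 27 were DEGs, 9 higher and 18 lower in Sst-neurons, a share of 4.80%. The groups were separated without overlap for all 27, and for 35.3% of all entries tested. The median log2 fold change was 0.05 over all entries tested and -0.09 over the position-checked ones. Leaving out 1 library lowered the position-checked count to 14 without Sst replicate 1, 10 without Sst replicate 2, 13 without Sst replicate 3, 8 without Thy1 replicate 2 and 15 without Thy1 replicate 3, of which 12, 10, 13, 8 and 10 were among the 27. Without Thy1 replicate 3, the calls of Shisa9, Rtn4r, Dlg1, Dgkg, Cln8, Etv5, Kpna1, Sept5, Myadm, Rpl35a, Gm2676, Gm3375, Rwdd2b, ND5, ND6 and ATP6 were among those lost (adjusted p from 0.0503 for Dgkg to 0.349 for ND6, edgeR), while their directions were kept. The log2 fold changes of some of these genes were larger in size with this 1 Thy1 library and those of others smaller. Dgkg was at 2.33 ± 0.37 against 2.15 ± 0.23 with both, and Cln8 at 3.28 ± 0.65 against 3.15 ± 0.44. Dlg1 was at -2.52 ± 0.42 against -2.59 ± 0.31, Etv5 at -2.15 ± 0.42 against -2.30 ± 0.32, and ATP6 at -1.01 ± 0.30 against -1.25 ± 0.22. Why the calls were lost was not tested. More of the 27 calls were lost without Thy1 replicate 2. The split between higher and lower position-checked DEGs was not stable, with 9 and 6 without Thy1 replicate 3, 3 and 5 without Thy1 replicate 2, 3 and 11, 1 and 9, and 4 and 9 without Sst replicates 1, 2 and 3, and 6 and 22 with voom. Over all entries it was 38 and 17 without Thy1 replicate 3, 48 and 39 with library totals and no TMM, and 34 and 75 with voom. Fam131a, Ctxn1, Plcxd2 and Sox1 remained called in all 17 alternative fits that kept the fold threshold, and the other 23 lost their call in at least 1. DESeq2 called 551 entries (8.68%) and 77 of the 562 position-checked ones (13.7%), among them all 27.

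**Figure D1:**
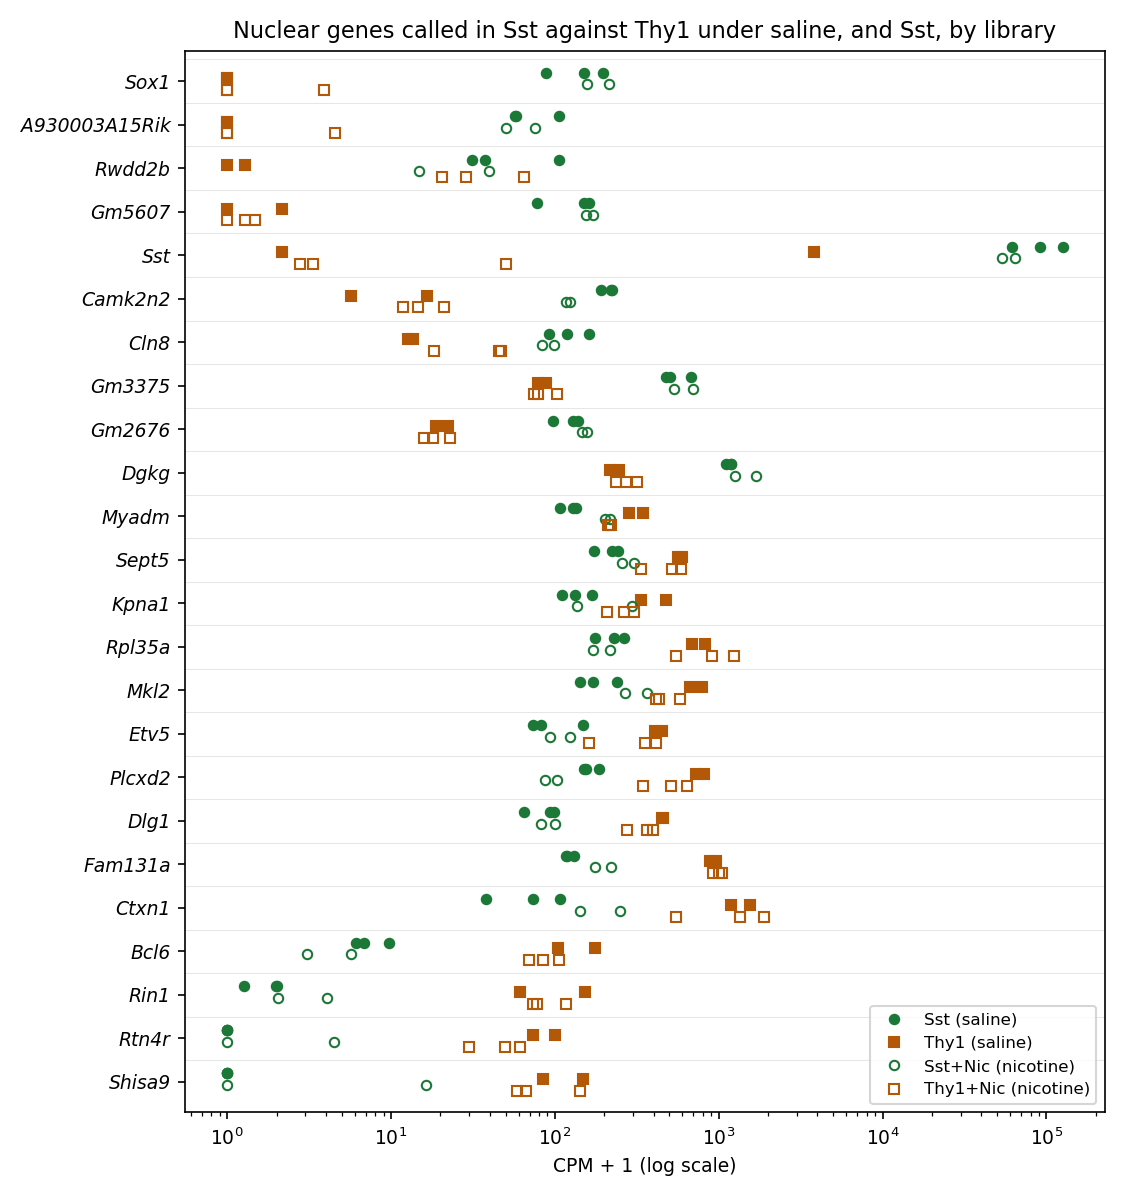
Levels of Sst and of 23 nuclear genes called under saline, as CPM + 1 on a log axis, with 1 symbol per library. Circles are Sst-neurons and squares Thy1-neurons, filled under saline and open under nicotine. Filled circles and filled squares do not overlap for any gene, and Thy1 replicate 3 lies at 3795 CPM for Sst.

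Among transcription regulators, Sox1 was higher and Bcl6 and Mkl2 were lower in Sst-neurons. Sox1 (chr8:12395519-12399555), a SoxB factor, was at 195, 87.5 and 149 CPM in the Sst libraries and had no count in Thy1-neurons. Allowing 3 counts per library there, it was at least 171-fold higher in Sst-neurons (adjusted p = 0.00883, edgeR). Gm5607, the noncoding RNA now named Sox1ot that spans the Sox1 locus (chr8:12385771-12436732), was at 149, 77.3 and 161 CPM against 1.15 and 0 CPM, a log2 fold change of 7.59 ± 1.00. The annotated genes overlap, and counting by strand is not stated, so that fragments of one may have been counted for the other.

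Bcl6 (chr16:23965050-23988866), a zinc finger repressor active in cortical neurogenesis, was at 8.70, 5.87 and 5.13 CPM in Sst-neurons and at 175 and 103 CPM in Thy1-neurons (log2 fold change -4.56 ± 0.46, adjusted p = 0.00883 in edgeR). Mkl2, now named Mrtfb, encodes a coactivator of serum response factor and was at 237, 141 and 171 CPM against 785 and 663 CPM (-2.17 ± 0.24). Etv5, an ETS factor that lies downstream of growth factor signalling and was not on the list, was at 147, 81.1 and 72.1 CPM against 406 and 447 CPM (-2.30 ± 0.32). Each of the 3 was lower in every Sst library than in either Thy1 library. Of 23 listed transcription regulators, 22 were tested, 13 with positive and 9 with negative log2 fold changes (median 0.15), and 3 were DEGs in edgeR and 6 in DESeq2 (1.72% and 8.68% of all entries, 4.80% and 13.7% of position-checked ones). The listed regulators of highest level besides Mkl2 were Crebbp, a histone acetyltransferase, at 0.22 ± 0.44, and Zfp148, a zinc finger factor, at -0.90 ± 0.35 on the log2 scale, and neither passed the test.

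Genes of the glutamatergic postsynapse were among the DEGs lower in Sst-neurons. Shisa9 (chr16:11983593-12270904), an auxiliary subunit of AMPA receptors, had 0 counts in the 3 Sst libraries and was at 83.4 and 147 CPM in Thy1-neurons, at least 149-fold lower in Sst-neurons (adjusted p = 0.012, edgeR). Dlg1 (chr16:31663443-31873356) encodes SAP97, a scaffold that binds AMPA and NMDA receptors, and was at 92.5, 97.2 and 63.7 CPM against 457 and 452 CPM (-2.59 ± 0.31). Both genes were separated from the other group in every library. Of 8 position-checked members of the list of glutamate receptors and scaffolds, 7 were tested and 2 were DEGs (both lower). The median log2 fold change was -0.32. DESeq2 called 4, adding Kalrn and Grik1. By edgeR, 1.72% of all entries and 4.80% of position-checked ones were called, and by DESeq2 8.68% and 13.7%. Kalrn, a guanine nucleotide exchange factor of dendritic spines, was at -1.04 ± 0.29 and Dlgap2, a scaffold of the postsynaptic density, at 0.61 ± 0.35, and neither passed the test in edgeR, where Kalrn had an adjusted p of 0.152 against 0.00983 in DESeq2. The kainate receptor subunit gene Grik1, named after its values were seen, was at 45.7, 58.7 and 121 CPM in Sst-neurons against 0 and 7.41 CPM, with an adjusted p of 0.219 in edgeR.

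Camk2n2, an inhibitor of the calcium/calmodulin-dependent kinase CaMKII, went the other way (chr16:20619215-20621278). It was at 219, 191 and 221 CPM in Sst-neurons and at 15.5 and 4.67 CPM in Thy1-neurons, a log2 fold change of 4.25 ± 0.55 (adjusted p = 0.0166, edgeR). Dgkg, the gamma isoform of diacylglycerol kinase, which converts diacylglycerol to phosphatidic acid, was at 1191, 1104 and 1187 CPM against 217 and 247 CPM (2.15 ± 0.23, adjusted p = 0.0097, edgeR). Dgkg had the highest level of the nuclear DEGs that were higher in Sst-neurons, and its values within each group lay close together (1161 ± 49.3 CPM, SD, n = 3, and 232 ± 21.0 CPM, n = 2). Of 19 listed kinases and phosphatases tested, 5 had positive and 14 negative log2 fold changes (median -0.19). Of these 19, 2 were DEGs, 1 in each direction, against 1.72% of all entries and 4.80% of position-checked ones. DESeq2 called 3 of the 19, a share near the 13.7% it called of all position-checked entries. Gsk3b, at -0.18 ± 0.17, and Ppp1ca, a catalytic subunit of protein phosphatase 1, at -0.55 ± 0.21, were among the members of highest level and did not pass the test.

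Rin1 and Rtn4r were at or near 0 in Sst-neurons. Rin1 (chr19:5049999-5057071), a Ras effector and exchange factor for Rab5 that is enriched in forebrain neurons, had 0.995, 1.02 and 0.270 CPM in the Sst libraries and 152 and 60.4 CPM in the Thy1 libraries (-7.19 ± 0.76, adjusted p = 0.00892, edgeR). It was the 1 DEG among 16 tested regulators and effectors of small GTPases, whose median log2 fold change was -0.03. DESeq2 called 3 of the 16. The shares called by edgeR were 1.72% of all entries and 4.80% of position-checked ones, and by DESeq2 8.68% and 13.7%. Of the 3 listed genes of highest level, Kalrn is given above, and Arl2 (0.46 ± 0.33) and Ranbp1 (0.48 ± 0.33), which act on tubulin folding and on Ran, did not pass the test.

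Rtn4r (chr16:18127642-18152408), the Nogo receptor, which limits axon growth, had 0 counts in all Sst libraries and 72.5 and 99.7 CPM in Thy1-neurons, at least 111-fold lower in Sst-neurons (adjusted p = 0.0144, edgeR). It was the 1 DEG among 9 tested axon guidance genes (median -0.54), of which DESeq2 called 2. The 2 tools called 1.72% and 8.68% of all entries, and 4.80% and 13.7% of position-checked ones. Gap43, a growth cone protein, was at 2472, 2194 and 2839 CPM against 3872 and 4468 CPM, without overlap, but at a log2 fold change of -0.92 ± 0.20 and an adjusted p of 0.0875 in edgeR. The guidance receptors Robo1 (0.41 ± 0.27) and Robo2 (-0.54 ± 0.30) did not pass the test.

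The marker genes Ctxn1 and Fam131a were higher in Thy1-neurons in every library. Ctxn1 (chr8:4257646-4259274) encodes cortexin 1, a small membrane protein enriched in cortex, and was at 72.8, 37.2 and 106 CPM in Sst-neurons against 1190.5 and 1545 CPM in Thy1-neurons (-4.45 ± 0.42, adjusted p = 0.00883, edgeR). Fam131a (chr16:20693094-20703044) was at 118, 116 and 129.8 CPM against 887 and 966 CPM (-3.11 ± 0.24, adjusted p = 0.00805). Fam131a had the narrowest spread of the pair, 121 ± 7.72 CPM (SD, n = 3) and 926 ± 56.0 CPM (n = 2). Fam131a overlaps Clcn2 in the annotation, and fragments in the shared part cannot be assigned to one gene.

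Further nuclear DEGs that were lower in Sst-neurons were Plcxd2, Sept5, Kpna1, Rpl35a and Myadm. Plcxd2, which carries a phosphatidylinositol-specific phospholipase C X domain, was at 185, 155 and 150.3 CPM against 808 and 725 CPM (-2.40 ± 0.22). Sept5 (Septin5), a presynaptic septin that binds syntaxin, was at 222, 172 and 242 CPM against 566 and 598 CPM (-1.64 ± 0.23). Kpna1, an importin alpha that carries proteins into the nucleus, was at 168, 109 and 133 CPM against 332 and 477 CPM (-1.77 ± 0.29). None of the 5 genes overlapped between groups, which held for all 27 DEGs and for 35.3% of all entries tested. Rpl35a, a protein of the large ribosomal subunit, was at 174, 230.1 and 262 CPM against 685 and 818 CPM (-1.92 ± 0.30), and Myadm, a membrane protein, was at 128, 107 and 134 CPM against 344 and 281 CPM (-1.52 ± 0.25). Ribosomal protein genes have many processed pseudogenes that can share their fragments, so that the value of Rpl35a is uncertain. Sept5 overlaps Gp1bb and Rpl35a overlaps Iqcg in the annotation. The adjusted p-values of these 5 genes in edgeR lay between 0.00883 and 0.0374.

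Among vesicle, endosome and lysosome genes, Cln8, an endoplasmic reticulum protein that carries lysosomal enzymes towards the Golgi, was higher in Sst-neurons, at 159.6, 118 and 91.2 CPM against 11.7 and 12.6 CPM (chr8:14881335-14901720, log2 fold change 3.15 ± 0.44, adjusted p = 0.0221 in edgeR). With Sept5 it made 2 DEGs of 22 tested members, against 1.72% of all entries and 4.80% of position-checked ones. Of these members, 14 had positive and 8 negative log2 fold changes (median 0.19). DESeq2 called 3, a share near the 13.7% it called of all position-checked entries. The members of highest level, Ap2m1 of the clathrin adaptor AP2 (0.24 ± 0.23), Atp6v1a of the vacuolar proton pump (-0.18 ± 0.21) and Rogdi (0.35 ± 0.22), did not pass the test.

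The remaining DEGs higher in Sst-neurons were 2 pseudogenes, a noncoding RNA and Rwdd2b. Gm3375 was at 473, 505 and 673 CPM against 77.9 and 87.9 CPM (2.56 ± 0.31), and Gm2676 was at 128, 96.2 and 138 CPM against 17.8 and 21.1 CPM (2.45 ± 0.40). Pseudogene counts may come from related genes elsewhere in the genome, and both values are uncertain for this reason. The noncoding RNA A930003A15Rik (chr16:19876567-19884274) was at 56.2, 105 and 56.9 CPM in Sst-neurons and had 0 counts in Thy1-neurons, a difference of at least 86.5-fold (adjusted p = 0.0156, edgeR). Rwdd2b (chr16:87433331-87440592), which encodes a protein with an RWD domain, was at 105, 30.4 and 36.4 CPM against 0.286 and 0 CPM (8.16 ± 1.24, adjusted p = 0.0279, edgeR).

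**Figure D2:**
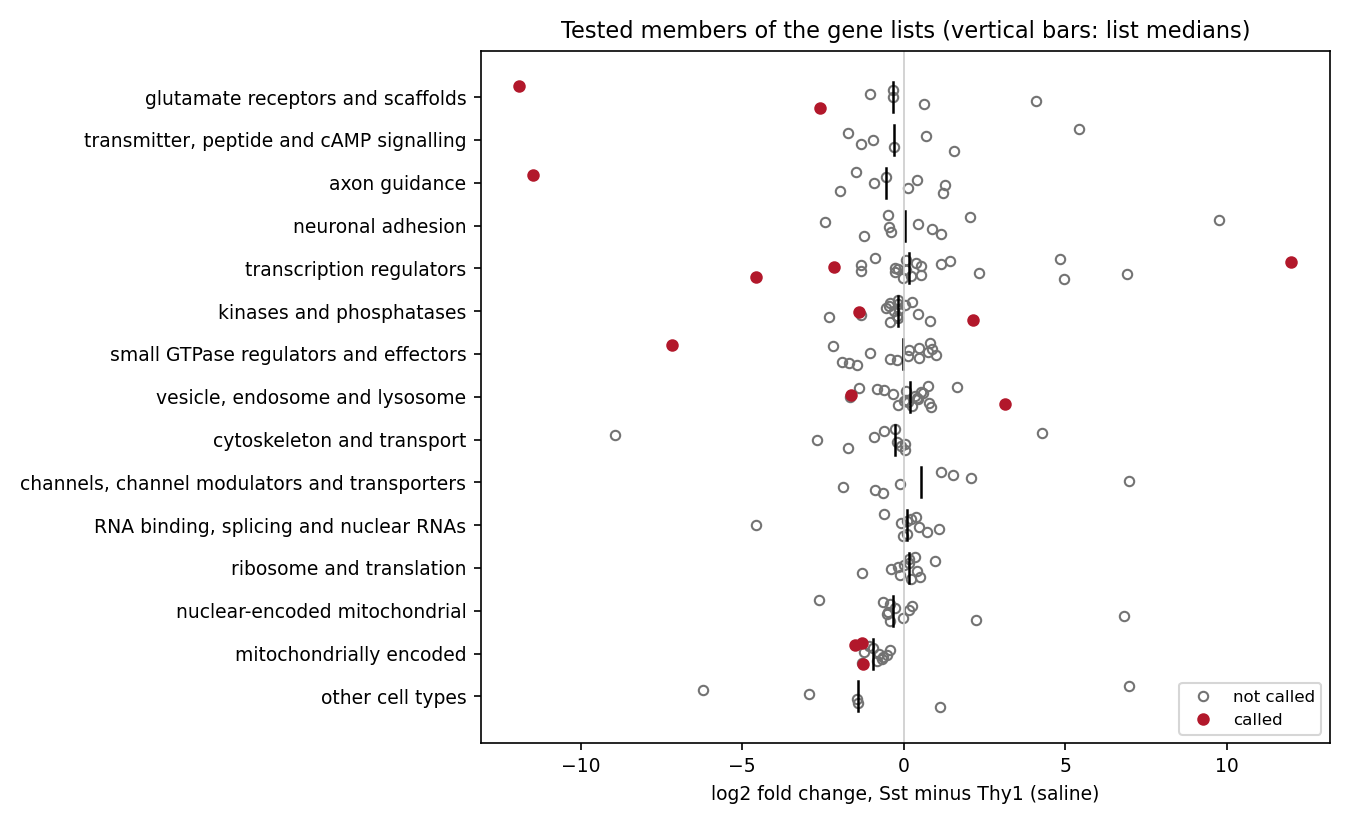
Log2 fold changes (Sst minus Thy1, saline) of the tested members of 15 gene lists, 1 point per gene, with filled points for DEGs and a vertical bar at each list's median. The 13 mitochondrially encoded genes all lie below 0 (median -0.97), and the medians of the nuclear neuronal lists lie between -0.54 and 0.52.

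The further lists below held no DEG in edgeR: transmitter, peptide and cAMP signalling (7 tested), neuronal adhesion (10), cytoskeleton and transport (11), channels and transporters (8), RNA binding (11), and ribosome and translation (12), a list that did not include the DEG Rpl35a. At an unadjusted p under 0.05 (edgeR) these lists had 1, 4, 4, 1, 1 and 2 members. That level was reached by 16.3% of all entries and 22.8% of position-checked ones. DESeq2, which called 8.68% of all entries and 13.7% of position-checked ones, called 1, 3, 3, 1, 0 and 0. Abat, the GABA transaminase that breaks down GABA, was at 1474, 644 and 857 CPM in Sst-neurons and 231 and 347 CPM in Thy1-neurons, without overlap, at a log2 fold change of 1.55 ± 0.36 and an adjusted p of 0.10 in edgeR. In the adhesion list, Cd200 was at 1543, 964 and 983 CPM against 564 and 559 CPM (0.86 ± 0.23, adjusted p = 0.137, edgeR) and Alcam was at 292, 231 and 287 CPM against 521 and 599 CPM (-1.24 ± 0.23, adjusted p = 0.0538, edgeR). Both genes had groups that did not overlap and missed the threshold, while Cadm2 overlapped (-0.39 ± 0.27). Lsamp, the limbic system associated membrane protein, which was named after its values were seen, was at 616, 299 and 233 CPM against 73.3 and 86.5 CPM (2.04 ± 0.43, adjusted p = 0.0758, edgeR).

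The 3 genes of highest level in each of the cytoskeleton, channel, RNA binding and ribosome lists did not pass the test in edgeR. The actin regulator Cfl1 was at 5637, 6411 and 7984 CPM in Sst-neurons and 6074 and 6711 CPM in Thy1-neurons (-0.10 ± 0.24), and the neuronal cytoskeletal protein gene Tagln3 at -0.27 ± 0.21 and the actin-binding Coro1b at 0.02 ± 0.40 were others of this kind. The sodium channel modulator Fgf12 (-0.12 ± 0.22), the pump Atp13a3 (-0.89 ± 0.54) and the nucleoside transporter Slc29a2 (1.51 ± 0.67) were not DEGs. The splicing regulator Rbfox1 (0.46 ± 0.20), the splicing factor Sf3b2 (0.37 ± 0.20) and the nuclear RNA Malat1 (0.71 ± 0.48) did not pass the test, nor did the translation factor Eif4a2 (0.50 ± 0.21) or the ribosomal protein genes Fau (0.39 ± 0.30) and Rpl24 (0.16 ± 0.33). Malat1 ranged from 30736 to 84690.0 CPM among the Sst libraries, a wider range than the gap between the group means.

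All 13 mitochondrially encoded genes had lower CPM in each Sst library than in either Thy1 library. They code for subunits of the respiratory chain and ATP synthase. Of all entries tested, 35.3% did not overlap in either direction, and of position-checked ones 39.7%. The totals behind these CPM include the fragments of Sst. Together the 13 genes made up 21.5%, 22.1% and 21.2% of counted fragments in Sst-neurons and 31.7% and 35.7% in Thy1-neurons, a difference of -12.1 percentage points. The exact two-sided permutation test gave p = 0.1, the smallest value that 3 against 2 libraries allow. Since Sst itself took up to 12.6% of the fragments, the share was also taken over fragments outside Sst, where it was 23.8% ± 1.30 (SD, n = 3) against 33.7% ± 2.92 (n = 2), a difference of -9.90 points. The log2 fold changes of single genes ran from -1.51 to -0.43 with standard errors of 0.17 to 0.25, and 12 of the 13 were at an unadjusted p under 0.05, as were 16.3% of all entries and 22.8% of position-checked ones.

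Of these 13 genes, 3 passed the threshold: ND5 and ND6 of complex I and ATP6 of ATP synthase. Among all entries 1.72% passed it, and among position-checked ones 4.80%. ND5 (MT:11742-13565) was at 8831, 6356 and 5417 CPM against 15719 and 18477 CPM (-1.51 ± 0.22, adjusted p = 0.0262, edgeR). ND6, which lies on the opposite strand, was at 2349.8, 2643 and 2539 CPM against 4853 and 6094 CPM (-1.29 ± 0.23, adjusted p = 0.0498). ATP6 was at 14349, 16357 and 16616 CPM against 30056 and 36805 CPM (-1.25 ± 0.22, adjusted p = 0.0483). ND3, which carried the smallest difference, was at 1639, 2102 and 1971 CPM against 2194 and 2419 CPM (-0.43 ± 0.25). These calls held in 9, 8 and 8 of the 17 alternative fits, 1 of which left the genes out. With Sst left out of the library sizes and of TMM, ND6 and ATP6 had log2 fold changes of -1.34 and -1.30, slightly larger in size, at an adjusted p of 0.0572 (edgeR). With library totals and no TMM, ND5 was at -1.32 and an adjusted p of 0.0546 (edgeR). ND5 and ND6 overlap by a few bases in the annotation, as do ATP6 and its neighbours ATP8 and COX3. The mitochondrial ribosomal RNAs Rnr1 and Rnr2 made up 4.07% ± 1.10 (SD, n = 3) of fragments in Sst-neurons and 9.10% ± 0.0438 (n = 2) in Thy1-neurons.

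Nuclear genes for mitochondrial proteins did not share this pattern at the threshold used: of 12 tested, 4 had positive and 8 negative log2 fold changes (median -0.35), none was a DEG in edgeR, none was at an unadjusted p under 0.05, and DESeq2 called 0. Of the 13 mitochondrially encoded genes, DESeq2 called 7, against 8.68% of all entries and 13.7% of position-checked ones. The complex I subunit genes Ndufs8 (-0.48 ± 0.22), Ndufb4 (-0.53 ± 0.24) and Ndufv1 (0.16 ± 0.23) had the highest levels. No test of the difference between these genes and the mitochondrially encoded ones was run.

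**Figure D3:**
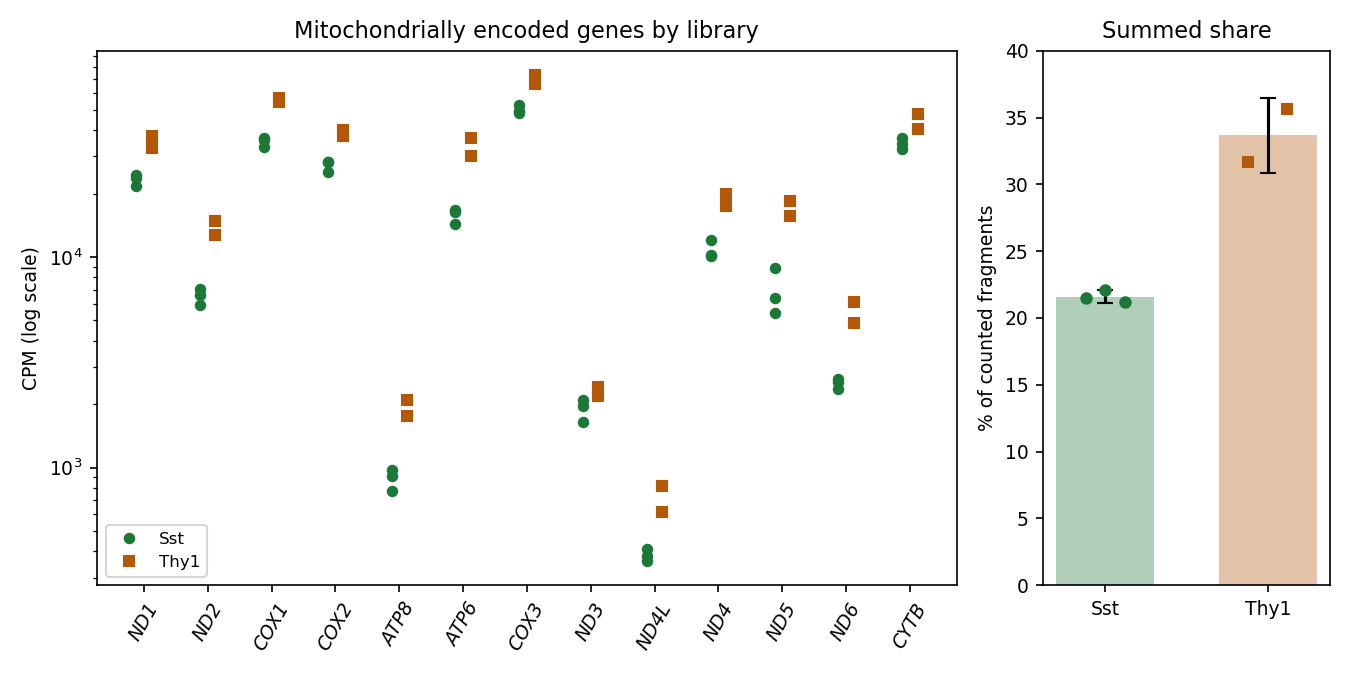
Left, CPM (log axis) of the 13 mitochondrially encoded genes in each saline library, in genome order, with circles for Sst-neurons and squares for Thy1-neurons. Right, their summed share of counted fragments, with bars at the group mean, SD as error bars and 1 point per library. Every gene is lower in all 3 Sst libraries, and the shares are 21.2 to 22.1% against 31.7 and 35.7%.

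Some markers of other cell types had counts in every library. Of 13 position-checked genes of endothelial, vascular, mural, microglial, blood, oligodendroglial or astrocytic cells, between 5 and 8 were at 0 in each library, 6 were tested, 2 with positive and 4 with negative log2 fold changes (median -1.43). None was a DEG in edgeR, and 2 were at an unadjusted p under 0.05 (16.3% of all entries, 22.8% of position-checked ones). DESeq2 called 1 (8.68% of all entries, 13.7% of position-checked ones). That gene, Slc15a2, was at 39.5, 0 and 38.3 CPM in Sst-neurons against 0 and 0.275 CPM, and the other gene under an unadjusted p of 0.05, Lrrc33, was at 0.249, 0 and 0 CPM against 8.31 and 6.59 CPM. Their summed level was 99.9, 182 and 317 CPM in Sst-neurons and 176 and 131 CPM in Thy1-neurons, so that the groups overlapped. The members of highest level were Apod, of oligodendrocyte lineage and perivascular cells, at 20.9, 103 and 193 CPM against 0 and 84.3 CPM, and the collagens Col4a2, at 35.6, 31.1 and 6.48 CPM against 92.2 and 28.8 CPM (-1.44 ± 0.82), and Col4a1, at 0.995, 10.5 and 25.9 CPM against 55.3 and 8.24 CPM (-1.42 ± 1.31). Cldn5, an endothelial tight junction gene, was at 35.7 CPM in Sst replicate 2 and at 0 in the other 4 libraries. Cd86, a gene of microglia and other antigen-presenting cells, was at 50.5 CPM in Sst replicate 3 and at most 0.275 CPM elsewhere. Their part in the differences above was not tested.

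The nicotine libraries gave a second set of values for the 27 DEGs from other mice. Among them, 26 had the same direction in Sst+Nic against Thy1+Nic, 23 with no overlap between libraries (39% of all entries tested there did not overlap in either direction) and 23 at an unadjusted p under 0.05 (15.8% of all entries). Position-checked genes that were not DEGs under saline had the same direction in 66.8% of 509 cases. By edgeR, 8 of the 27 were DEGs there as well, namely Rin1, Bcl6, Fam131a, Dlg1, Plcxd2, Dgkg, Gm3375 and Gm5607, against 0.507% of all entries. Sst was at 53779 and 64639.8 CPM in Sst+Nic and at 49.2, 2.36 and 1.77 CPM in Thy1+Nic, and it was a DEG in these libraries (11.19 ± 1.59, adjusted p = 0.0356, edgeR).

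**Figure D4:**
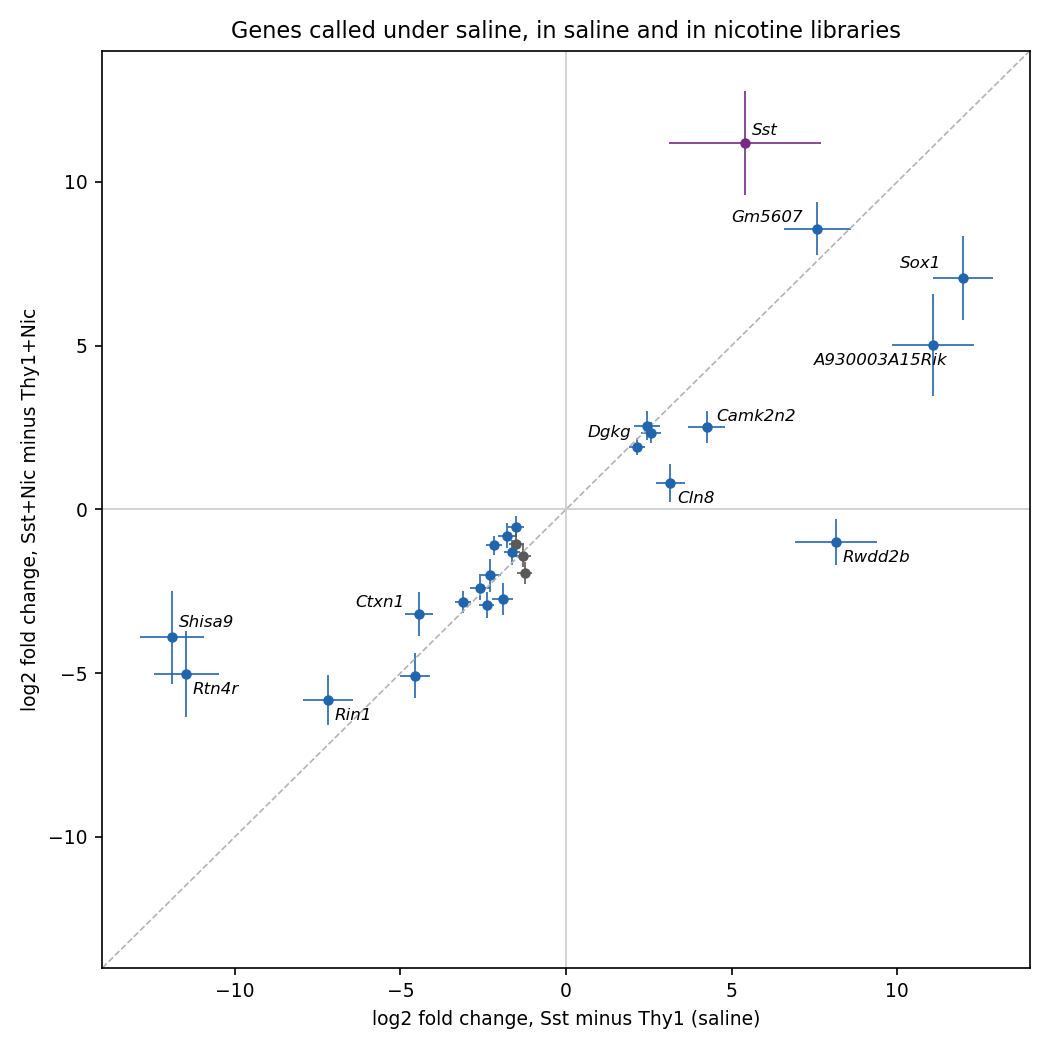
Log2 fold changes of 26 saline DEGs and of Sst, Sst minus Thy1 under saline on the horizontal axis and Sst+Nic minus Thy1+Nic on the vertical axis, with SE as error bars and equal values on the dashed line. Grey points are mitochondrially encoded genes. All points but Rwdd2b lie in the lower left or upper right part of the plot, where both differences have the same sign.

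The genes with no count in one saline group kept low levels in the nicotine libraries of that cell type. Sox1 was at 214 and 156 CPM in Sst+Nic and at 2.88, 0 and 0 CPM in Thy1+Nic, and A930003A15Rik was at 74.8 and 49.2 CPM against 0, 3.54 and 0 CPM. Shisa9 was at 0 and 15.4 CPM in Sst+Nic against 65.4, 141 and 57.4 CPM, and Rtn4r at 0 and 3.48 CPM against 59.9, 48.4 and 28.9 CPM. The groups did not overlap for any of these 4 genes.

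Ctxn1 was at 142 and 249 CPM in Sst+Nic and at 1898, 1350.4 and 544 CPM in Thy1+Nic, and Camk2n2 at 122 and 116 CPM against 20.2, 10.9 and 13.6 CPM. Kpna1, Myadm and ND5 had the same direction as under saline but overlapped. Cln8 was at 82.7 and 98.4 CPM against 44.6, 46.1 and 17.4 CPM, a log2 difference of 0.80 ± 0.59, compared with 3.15 ± 0.44 under saline. Rwdd2b was the 1 gene of the 27 with the opposite direction, at 38.4 and 13.7 CPM in Sst+Nic and 27.6, 19.4 and 63.6 CPM in Thy1+Nic (-1.0 ± 0.70). The mitochondrially encoded genes were lower in Sst+Nic in 13 of 13 cases (median log2 fold change -1.41). Of them, 11 did not overlap, against 39% of all entries tested there. In edgeR 13 were at an unadjusted p under 0.05, against 15.8% of all entries, and none was a DEG. DESeq2, which called 7.62% of all entries there, called 11.

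Whether the cell type difference itself changed with nicotine was tested as an interaction over all 10 libraries. None of 8242 entries passed in edgeR, 605 (7.34%) were at an unadjusted p under 0.05, and DESeq2 called 25 (0.303%). Of the 27 genes, 8 were at an unadjusted p under 0.05, and the lowest adjusted p was 0.133, for Rwdd2b. The 27 were chosen by their saline differences, and the same saline libraries enter this interaction. Their count therefore cannot be set against the share of all entries.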

How the data were processed

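RNA-seq libraries of hand-collected cortical neurons were used. The authors trimmed the reads, aligned them to GRCm38 with TopHat and deposited raw counts of fragments on 35129 gene entries, without normalization; HTSeq is named in the submitters' processing notes, and versions are not given in the sources used here. Each library was labelled as a separate sample of its group, and the study's methods describe 3 mice per group.

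Positions came from RefSeq (GRCm38.p6), by symbol or, for 121 of the 1031 position-checked entries, by a unique older name, and a gene had to end inside its stretch. Levels are CPM over all counted fragments. Differences were tested with the quasi-likelihood test of edgeR 4.0.16 (R 4.3.3; TMM, filterByExpr with a minimum count of 10) on the 5 libraries compared, with Benjamini-Hochberg adjustment over all entries tested. The study's own test, which was not installed, was replaced while its thresholds were kept. Library factors of TMM ranged from 0.883 to 1.18, and the common dispersion was 0.943. DESeq2 1.42.0, limma 3.58.1 (voom with sample quality weights), other normalizations and filters, a replicate block and the omission of each library were alternatives. Scripts were tested on simulated counts. Shares were compared by exact permutation with Python 3.11.15 and scipy 1.17.1.

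Genes were named by rule: every position-checked DEG, the 4 markers, and the called members and up to 3 members of highest mean CPM of each list, the mitochondrially encoded genes mostly by range. The markers, stretches and lists were chosen with earlier results of these data known. Deviations of the same-numbered Sst and Thy1 libraries correlated at -0.0151 and 0.0184, which cannot tell whether they were paired. Some genes that this rule would name are not reported here.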

Additional observations from a re-analysis of the deposited data

Results flagged for a closer look

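Rwdd2b was flagged because its difference between cell types differed with nicotine by one of the tests run. The interaction (the difference under nicotine minus that under saline) was -9.19 ± 1.44 on the log2 scale in edgeR, with an unadjusted p of 3.23e-05 and an adjusted p of 0.133 over all entries. In DESeq2 it was -9.36 ± 1.81 with an adjusted p of 0.000365. The levels behind it were 0.286 and 0 CPM in the 2 Thy1 libraries and 19.4 to 63.6 CPM in the 3 Thy1+Nic libraries, while the Sst and Sst+Nic libraries overlapped. The gene was named for its saline difference, and the same saline libraries enter the interaction. The cause was not tested.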

How the results depend on the processing

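Over all entries, 109 calls became 551 with DESeq2, 454 with no filter on low counts, 266 with a filter of at least 10 counts in 1 library and 227 with the replicate block, which let 8733 entries pass the filter, and 33 to 55 when 1 library was left out. Over position-checked entries, 27 calls became 77 with DESeq2, 82 with no filter, 51 with at least 10 counts in 1 library and 54 with the replicate block, and 8 to 15 when 1 library was left out. A fit with 1 Thy1 library assumes that it varies like the Sst libraries. Same-numbered libraries correlated at -0.0151 and 0.0184 in their deviations. The deviations of 2 Thy1 libraries from their mean are opposite by construction, so that this cannot tell whether the numbers pair them. With the replicate block on the 6350 entries tested without it, chosen after seeing the data, 59 entries and 18 position-checked ones were called, and 16 of the 27 genes remained called, against 27 with the block and its own filter. Of the 27, 8 were called in the nicotine libraries by edgeR and 20 by DESeq2, and the interaction was called for 0 entries by edgeR and 25 by DESeq2. The remaining alternatives kept these counts within 1.5 times. The 27 genes had 456 alternative values, of which 349 stayed past the threshold, 107 did not and 0 changed direction.

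The genes followed through the alternatives did not include Grik1, Lsamp and Slc15a2, each of which DESeq2 called. Of the followed genes that were not called, 18 alternative values passed the threshold, 7 of Alcam, 5 of Abat and 2 each of Kalrn, Malat1 and Sst. Another 29 values of 9 genes changed sign, none past the threshold. Without TMM, which raised the median of all entries from 0.05 to 0.22, they were 0.0126 for Atp6v1a, 0.0629 for Cfl1 and 0.0269 for Fgf12. With the replicate block they were 0.0731 for Cfl1, 0.0032 for Fgf12, -0.10 for Coro1b and -0.21 for Crebbp, and with the block on the entries tested without it 0.0768, 0.0069, -0.0969 and -0.21. Among position-checked entries alone Cfl1 was at 0.0338. Coro1b was at -0.0322 with DESeq2, -0.0724 with voom, -0.0323 with RLE size factors, -0.0243 without mitochondrially encoded entries, -0.0238 without Sst in the library sizes and -0.0137 with at least 10 counts in 1 library. When 1 library was left out, Coro1b ranged from -0.26 to 0.24, Crebbp from -0.26 to 0.45, Ap2m1 from -0.0039 to 0.33, Ndufv1 from -0.0042 to 0.31, Rpl24 from -0.0253 to 0.38, Cfl1 from -0.30 to 0.0574 and Col4a1 from -2.44 to 0.34. The depth of 3490998 to 4022038 fragments and the 2 Thy1 libraries limit what low entries can show.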
